A study of Mus musculus with 6 samples.

Results

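The noncoding interval probes on the autosomes are oligonucleotides of an Agilent mouse expression array whose identifier is a stretch of genome and not a transcript accession. They were taken as the non-control probes named by a chromosome, a start and an end on chromosomes 1 to 19, in build mm9 per the file headers, which gave 15617 of the 55681 non-control probes. A further 577 interval probes lay on the X chromosome and were left out. The series compared sorted fetal liver progenitors of Satb1-null mice and of wild type littermates at E18.5 (late gestation), all on a C57BL6/J background, to find genes affected by the loss of Satb1. It holds 6 arrays, 1 per genotype for each of the HSC, LMPP and CLP populations. The HSC-enriched gate was lineage-negative, c-kit high, Sca-1 positive and Flt3 negative, the LMPP-enriched gate differed from it by being Flt3 positive, and the CLP-enriched gate was lineage-negative, c-kit low, Sca-1 low and IL7R alpha positive. The labels give neither the number of embryos pooled for an array nor the removed part of Satb1.

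Long noncoding RNAs are transcripts without a long open reading frame, and many are made from enhancers, from promoters in the reverse direction or from separate genes between coding genes. Their levels are known to differ strongly between cell types, and many are low in abundance. Satb1 is a nuclear protein that binds AT-rich DNA and holds chromatin loops together, and in blood it is known for its part in lymphoid development. HSC (haematopoietic stem cells) give rise to LMPP (lymphoid-primed multipotent progenitors), and CLP (common lymphoid progenitors) lie further along the path to lymphocytes.

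All values are log2 of the processed spot signal minus the 75th percentile of the array, so that 0 is that percentile, and a probe was called detected where the scanner software marked it well above background. A probe's brightness also depends on its sequence, so levels were ranked across probes only to choose which to name, and no ranking is a result. Among the genes of the sort, Flt3, Il7r and Kit followed the gates, and Ly6a (the Sca-1 gene) did so only in part. Kit read 2.79 and 3.74 in wild type and null-labelled CLP and 4.38 to 4.63 elsewhere. Ly6a read 0.29 and 0.35 in wild type and null-labelled HSC, 1.12 and 0.14 in LMPP, and 0.21 and -0.50 in CLP. It was lowest in CLP within each genotype, but wild type CLP lay above null-labelled LMPP. The Flt3 probe (a cytokine receptor of early lymphoid cells) stood at 3.21 and 3.32 in wild type and null-labelled LMPP and between 0.85 and 1.78 on the other 4 arrays, and the Il7r probe (the IL-7 receptor) at 1.61 and 1.55 in CLP against -2.64 to 0.12 elsewhere. The Satb1 probe did not separate the genotypes in LMPP (1.996 in wild type, 1.96 null-labelled) or in CLP (0.71 and 0.65) and was lower on the null-labelled array in HSC (-0.03 and -0.59); its place relative to the removed part is unknown. Xist was detected on the 3 null-labelled arrays only, and those arrays also shared the second row of the slide, so the genotype, the Xist signal and the slide row cannot be told apart. The slide columns followed the populations (HSC in 1, LMPP in 2, CLP in 3), so population and column cannot be told apart either. Among marker lists of other blood cells, 8 of 8 erythroid genes were detected on both CLP arrays and 6 or 7 elsewhere. The log2 of their summed signal was 9.52 and 9.61 in CLP against 4.25 to 6.58. Such a sum is set mostly by the brightest genes, here Hba-a1 (8.83 and 8.88 in wild type and null-labelled CLP) and Slc4a1 (7.82 and 8.02). The median gene of the list stood at 2.97 and 3.05 in CLP against -1.40 to 0.32. On the same scale CLP was also higher for the macrophage list (3.01 and 3.66 against -0.80 to 0.96), the megakaryocyte list (5.68 and 5.03 against 2.79 to 4.37) and the granulocyte and monocyte list (9.72 and 9.56 against 7.72 to 8.40). Detection separated CLP less: 5 of 6 macrophage genes against 3 to 5 elsewhere, 6 of 6 megakaryocyte genes against 5 or 6, and 8 of 8 granulocyte and monocyte genes on every array. Not every member was higher. Gp1bb, Gp9, C1qb and Csf1r did not exceed both HSC and LMPP in each genotype, and C1qa was detected on no array. The stem cell list was lower in CLP (4.76 and 4.88 against 7.26 to 7.68). The B lineage list was higher in CLP (6.03 and 6.15 against 3.67 to 4.29). Of its 10 genes, 9 and 10 were detected in wild type and null-labelled CLP, against 5 to 8 elsewhere. In wild type, Cd79b and Ebf1 did not exceed both HSC and LMPP.

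The 15617 probes covered 3390 intervals, from 62 to 7128487 bases wide with a median of 7451. Chromosome 1 held the most probes (1199) and chromosome 19 the fewest (322). An interval had 1 to 20 probes with a median of 3. Of the intervals, 1042 had probes for both strands, 2345 for 1 strand and 3 gave no strand. The strand letter of the probe name divided the probes almost evenly, into 7890 forward and 7714 reverse. Many intervals overlapped each other (2015 of them), and joining overlapping intervals gave 2126 separate loci with a median gap of 400.47 kb. Gene positions in the intervals' build and the probe sequences were not used here, so the surroundings of an interval are described by the other intervals near it.

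Fewer interval probes than gene probes were detected on every array. The share well above background was 52.3% in wild type HSC (95% exact Clopper-Pearson interval 51.5 to 53.1%, which covers the count of probes only), 46.5% in wild type LMPP and 43.9% in wild type CLP. On the null-labelled arrays it was 47.4% for HSC, 43.6% for LMPP and 45.1% for CLP. The wild type HSC array was the highest of the 6, and in both genotypes HSC lay above LMPP and CLP. Over the 27229 probes with a RefSeq accession the same shares lay between 60.4 and 63.5%, also highest in wild type HSC. The spread between arrays was thus wider for the intervals, at 43.6 to 52.3%.

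Detection was mostly shared or mostly missing. All 6 arrays detected 5061 interval probes (32.4%, gene probes 52.6%), and none detected 5560 (35.6%, gene probes 26.8%). Probes of short intervals were detected less often. Of those in intervals of up to 1 kb, 19.4% were found on all 6 arrays, against 32.7% from 1 to 10 kb, 36.3% from 10 to 50 kb and 33.7% above 50 kb. The probes of an interval often differed. Of the 2616 intervals with at least 3 probes, 261 had all of them on all 6 arrays, 1120 had none of them there, and 1235 were mixed. In all, 547 intervals had no probe detected on any array.

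The brightest probes by mean level over the 6 arrays, named here only as the top of the range, are given with their place. At chr17:39960567-39992817 the brightest reverse-strand probe gave 10.07 and 9.98 in wild type and null-labelled HSC, 10.14 and 10.14 in LMPP, and 10.07 and 9.92 in CLP. All 5 reverse and all 4 forward probes of that interval were detected on all 6 arrays. Within it lay 3 further intervals of the top 10, chr17:39979941-39981793 (reverse), chr17:39982023-39983277 (forward) and chr17:39983902-39985688 (forward), with brightest probes between 8.71 and 9.93. Other places were chr2:151992806-152025456 (forward, 9.14 to 9.78), chr7:108209996-108216032 (forward, 8.53 to 9.19), chr19:5801802-5802597 (reverse, 8.39 to 8.85) and chr19:5795690-5797464 (forward, 8.13 to 8.80). At chr2:151992806-152025456, 7 of 8 forward probes and 3 or 4 of 4 reverse ones were detected on each array. The remaining 2 of the top 10 lay on chromosome 18.

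Some probes were seen in a single population. A probe was called restricted where both arrays of a population detected it and none of the other 4 did. HSC had 162 such interval probes (1.04%) in 129 intervals, where 0.643% of all probes on the array were restricted to HSC. CLP had 87 (0.557%) in 74 intervals beside 0.657% of all probes. LMPP had 29 (0.186%) in 26 intervals beside 0.149%. These are descriptions of 2 arrays each, with no test. The wild type HSC array detected more interval probes than any other. When it was left out, with the null-labelled array alone standing for HSC, the counts became 470 for HSC, 86 for LMPP and 165 for CLP. Under a rule of 2-fold above all 4 other arrays in place of detection, the counts were 88 for HSC, 33 for LMPP and 113 for CLP, so the order of HSC and CLP depends on the rule. Most restricted probes were dim: the median level over the 2 arrays was -2.93 for HSC probes, -2.85 for LMPP probes and -3.05 for CLP probes, while the lowest well-above-background value of an array lay between -4.19 and -3.99. Both arrays exceeded -3 for 35 of the 162 HSC probes, 10 of the 29 LMPP probes and 19 of the 87 CLP probes.

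Among the HSC-restricted probes, the interval chr6:36765550-36793825 stood out by its number of probes, a feature noted after the values were seen. Its named reverse-strand probe was at -1.82 in wild type HSC and -1.26 in null-labelled HSC. It read -4.20 and -3.77 in wild type and null-labelled LMPP and -5.77 and -5.03 in CLP. Averaged over the genotypes, HSC was at least 5.15-fold above them. Such folds for restricted probes, here and below, compare genotype averages with the nearer of the other populations. Undetected values were first raised to at least the lowest well-above-background value of their array. A single genotype can differ by less than the bound. On its reverse strand 3 of 4 probes were restricted in the same way, on its forward strand 2 of 5, and none of the 9 probes was detected on any LMPP or CLP array. At chr10:94900849-94928059 a reverse-strand probe read -1.72 and -0.28 in HSC and -5.62 to -4.36 elsewhere (at least 8.09-fold), and 3 of 10 reverse probes were restricted to HSC and 0 of 10 forward ones. The probe with the highest bound, at chr5:147538052-147546377 (reverse), read -2.29 in wild type and 0.89 in null-labelled HSC (at least 9.39-fold), but it was alone among the 5 probes of its interval. Within wild type its LMPP minus HSC difference was -1.59. The other named HSC probes, at chr17:84359207-84360270 (at least 6.29-fold) and chr1:58443698-58449898 (at least 5.90-fold), were also alone.

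The CLP-restricted interval with the most even support was chr2:128142035-128142481 (reverse), where all 3 probes were detected on both CLP arrays and on no other. Its named probe read -0.98 in wild type and -1.82 in null-labelled CLP against -6.18 to -4.37 on the other 4 arrays, at least 6.11-fold. At chr3:131153358-131154061 (forward) the only probe read -0.04 and -2.24 in CLP and -5.87 to -5.35 elsewhere (at least 7.32-fold), and it lies inside chr3:131128972-131163308, which is described with the tested differences below. The other named CLP probes, at chr6:121036119-121036703 (reverse, at least 5.40-fold), chr7:144563845-144603732 (forward, at least 4.56-fold) and chr13:15947521-15999246 (forward, at least 4.46-fold), were each the only restricted probe of their interval and strand. These folds are genotype averages. At chr6:121036119-121036703 the CLP minus HSC difference was 4.05 in wild type and 0.82 in null-labelled cells. In bulk samples, fewer cells of a type and less RNA per cell cannot be told apart, and the part of the erythroid, macrophage, megakaryocyte and granulocyte signal of the CLP arrays in these results was not tested.

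The LMPP-restricted probes were few and each named probe was the only such probe of its interval. The strongest lay at chr13:56286339-56298089 (forward) and read -1.40 in wild type and -0.58 in null-labelled LMPP, against -3.93 and -4.12 in HSC and -6.10 and -6.23 in CLP (at least 7.97-fold). The other 9 probes of that interval were detected on both LMPP arrays too, but also on some HSC or CLP arrays. Smaller bounds came from chr1:135956616-135957485 (reverse, at least 4.43-fold), chr19:5001448-5001810 (reverse, at least 3.81-fold), chr2:132079092-132087069 (reverse, at least 3.31-fold) and chr4:11899775-11931875 (reverse, at least 3.29-fold). The opposite pattern, detection on the other 4 arrays but on neither array of a population, was most frequent for CLP: 215 interval probes (1.38%, gene probes 0.878%) were missing there. In LMPP 50 were missing (0.320%, gene probes 0.342%) and in HSC 15 (0.096%, gene probes 0.191%).

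The populations were compared with limma in a fit of population and genotype over the 6 arrays, with Benjamini-Hochberg adjustment over all 33096 probes detected on at least 2 arrays, 8349 of them autosomal interval probes. Each population has 1 array of each genotype, so the residual in this fit is the extent to which the genotypes disagree on a population difference, with 2 residual degrees of freedom. The SE was moderated by limma across probes (prior degrees of freedom 2.34). A probe below that detection mark was given at least the lowest marked value of its array, so a difference against an undetected group is a bound. Where both arrays of a population were undetected, this floor largely fixed their values. The SE and adjusted p of such a probe do not measure genotype disagreement in that population. Without the floor, 0 interval probes were called for CLP against LMPP or HSC. CLP against LMPP called 28 interval probes higher and 66 lower at an adjusted p under 0.05, in 57 intervals; over all probes 1.24% were called higher and 0.879% lower (2.12% either way). CLP against HSC called 21 higher and 83 lower, in 78 intervals, beside 1.04 and 0.916% over all probes (1.95% either way). The lower calls include HSC-restricted probes, such as those named at chr17:84359207-84360270 and chr6:36765550-36793825. Such probes entered the fit only through their HSC arrays, so their calls restate the restriction. At an unadjusted p under 0.05 the limma counts were 1512 (18.1%; all probes 22.0%) against LMPP and 1780 (21.3%; all probes 22.9%) against HSC. Among interval probes the called shares were 0.335 and 0.791% for CLP against LMPP and 0.252 and 0.994% for CLP against HSC, so calls of higher signal in CLP were rarer than over the whole array and calls of lower signal were near the background. Centring the arrays on their median moved the share of higher calls from 29.8 to 43.8% for CLP against LMPP and from 20.2 to 46.9% for CLP against HSC. For CLP against HSC, the 75th percentile over probes detected everywhere gave 7 higher and 62 lower, and normexp background correction gave 35.4% higher. With any 1 of the 6 arrays left out, 1 residual degree of freedom remains and no interval probe was called.

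The highest CLP signal relative to LMPP came from chr6:40693617-40720167 together with chr6:40699474-40719122, which lies inside it. A forward-strand probe of the larger interval read 0.55 and 2.54 in wild type and null-labelled HSC, -1.27 and -0.11 in LMPP, and 4.32 and 4.85 in CLP. Both CLP arrays lay above all 4 others and both LMPP arrays below all others. Its fitted difference of CLP minus LMPP was 5.27 ± 0.42 (SE, limma adjusted p = 0.0382), while CLP minus HSC was 3.04 and did not pass (limma adjusted p = 0.0578). Of the 12 probes at this locus 7 were called, 6 forward and 1 reverse, with differences from 4.12 to 5.27, and all 12 had the same sign.

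Signal that rose from near the detection limit in CLP was found at chr12:32781477-32808567 (reverse strand). A probe there read -3.84 and -3.07 in wild type and null-labelled HSC, -4.18 and -3.98 in LMPP, and 0.89 and 0.70 in CLP. The CLP arrays lay apart from the other 4, and neither LMPP array detected the probe. Its fitted difference of CLP minus LMPP was therefore a bound, at 4.81 ± 0.34 (limma adjusted p = 0.0382). All 3 probes of the interval were called in both comparisons, and they ranged from 4.25 to 4.98 against HSC and from 4.23 to 4.81 against LMPP.

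A similar pattern with signal on both strands was seen at chr3:131128972-131163308. A reverse-strand probe read -3.38 and -3.25 in wild type and null-labelled HSC, -3.77 and -6.10 in LMPP, and 1.52 and 0.11 in CLP. The groups did not overlap, and CLP minus LMPP was 4.69 ± 0.45 (limma adjusted p = 0.0394) with 4.13 for CLP minus HSC (limma adjusted p = 0.0451). The null-labelled LMPP array did not detect the probe, so the difference from LMPP is in part a bound. Against LMPP 2 forward and 2 reverse probes were called and all 11 probes of the locus had the same sign. At chr4:8865575-8899400, 1 probe of each strand was called in both comparisons (3.82 to 4.08 against LMPP), while the signs of the locus' 10 probes were mixed against HSC (6 alike). Neither LMPP array detected the forward probe there, so its 4.08 is a bound. The forward probes of chr3:30754871-30776438 were called against LMPP, 3 of 3, with differences from 2.27 to 3.27. Outside these, the named higher calls against HSC were chr1:175653557-175671940 (reverse, limma adjusted p = 0.0423), with -4.54 and -5.55 in HSC, -0.71 and -0.96 in LMPP and -0.84 and -0.23 in CLP, and chr12:110002978-110003360 (reverse, 2.97 ± 0.33, limma adjusted p = 0.0452). Neither HSC array detected the probe at chr1:175653557-175671940, so its difference from HSC is a bound.

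The lower CLP signals included the most negative value of the CLP against LMPP comparison, at chr10:120336296-120354471. A reverse-strand probe read 0.64 and 0.67 in wild type and null-labelled HSC, 0.39 and 1.20 in LMPP, and -4.65 and -4.75 in CLP. It was detected on all HSC and LMPP arrays and on neither CLP array, so its difference from LMPP of -4.95 ± 0.33 (limma adjusted p = 0.0382) is a bound. Of the 13 probes at the locus, which also takes in chr10:120336212-120338944 on the forward strand, 5 were called in both comparisons, 4 of them reverse. All 5 reverse and all 5 forward probes of chr10:120336296-120354471 had a negative CLP minus LMPP difference, from -5.50 to -0.26 and from -3.60 to -0.12 before any value was raised to the detection limit.

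The most negative CLP minus HSC difference was at chr3:30099759-30133959. A forward-strand probe read 1.56 and 0.82 in wild type and null-labelled HSC, 0.24 and 0.12 in LMPP, and -3.58 and -4.64 in CLP. The order was HSC above LMPP above CLP in both genotypes, and CLP minus HSC was -5.07 ± 0.29 (limma adjusted p = 0.0381). The null-labelled CLP array did not detect the probe, so the difference is in part a bound. In this locus 4 of 16 probes were called against HSC and 15 had the same sign. The next locus along the chromosome, chr3:30032959-30080281, lies 19.5 kb away. There 2 of 19 probes were called lower against HSC, both reverse and at -4.48 and -4.39, and all 19 had the same sign. Neither CLP array detected the probe at -4.48, so that value is a bound. Called loci with another called locus within 500 kb were few, 3 pairs for CLP against LMPP and 4 for CLP against HSC, and both members were lower in CLP in each pair. Most calls were lower in both comparisons, so a shared direction adds little. Of the 4 pairs against HSC, that of chr17:84359207-84360270 rests on its HSC-restricted probe. That probe entered the fit through its HSC arrays and adds no support.

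Other loci lower in CLP had several called probes. The locus at chr10:62347876-62374346, with an overlapping interval joined to it, had 4 of 22 probes called in each comparison, 2 on each strand. Its lowest difference from LMPP was -4.28 ± 0.34 (limma adjusted p = 0.0382). Neither CLP array detected that probe, so the difference is a bound. At chr6:86776350-86799450, 5 of 12 probes were called against LMPP (-3.04 to -2.25), and at the locus of chr9:31834945-32015745, 4 of 19 against LMPP and 3 against HSC (-4.46 to -2.39). The interval chr13:56286339-56298089, which held the strongest LMPP-restricted probe, had 4 of 10 probes called lower in CLP than in LMPP (-3.17 to -2.69); the -3.17 is that probe itself, which entered the fit through its LMPP arrays and adds no support. Further named calls were chr10:83185606-83225506 (forward, -4.72 ± 0.30 against LMPP, limma adjusted p = 0.0382) and chr8:122920901-123008463 (forward, -4.48 ± 0.47 against HSC, limma adjusted p = 0.0446). The wild type CLP array did not detect the former probe and neither CLP array detected the latter. Both differences are therefore bounds, the former in part. The comparisons with LMPP and HSC share the CLP arrays; 54 probes were called in both, 57.4% of the 94 and 51.9% of the 104. The stem cell list was lower and the erythroid and macrophage lists higher on the CLP arrays, and their part in these differences was not tested.

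LMPP and HSC were not separated by the test. No interval probe passed for LMPP minus HSC (limma, lowest adjusted p = 0.504), as none did over all probes, where 0% were called. At an unadjusted p under 0.05 there were 739 interval probes (8.85%; all probes 7.78%), 206 higher and 533 lower in LMPP. The interval with the most even values was chr8:82836971-82849309 (reverse), where 1 probe read 0.53 and 0.95 in HSC, 2.98 and 3.18 in LMPP, and 1.43 and 1.72 in CLP. Its LMPP arrays lay above the other 4, and its 3 probes differed from HSC by 1.46 to 2.34 (limma adjusted p = 0.504 for that probe). In the other direction, a forward probe of chr1:183783306-183834531 read -0.18 and -0.30 in HSC and -3.26 and -3.14 in LMPP. The difference was -2.96 ± 0.26 (limma adjusted p = 0.504), all 10 forward probes had that sign, with differences averaged over the genotypes from -2.96 to -0.94 (before any value was raised to the detection limit), and none of the 4 reverse probes was detected on any array. In the chr6:40693617-40720167 interval the 5 forward probes gave differences from -3.10 to -1.68 on the same scale, none of which passed the limma test.

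How well the genotypes agreed on a population difference was read from probes detected on all 4 arrays compared. For LMPP minus HSC, 58 of 5752 interval probes were past 2-fold higher in both genotypes and 113 past 2-fold lower, while 102 were past 2-fold in opposite directions. Over the whole array, 1.15% of 25905 probes so detected were higher and 1.30% lower. For CLP minus LMPP 159 interval probes were higher and 281 lower of 5190 with 119 opposite, beside 5.24 and 5.29% of 24436 probes over the whole array. For CLP minus HSC 160 were higher and 360 lower of 5388 with 117 opposite, beside 5.98 and 4.82% of 24912 probes. Opposite differences were not counted over the whole array, so these counts have no background to be read against. The correlation of the wild type with the null-labelled difference over interval probes, given as a description, was 0.14 for LMPP minus HSC, 0.35 for CLP minus LMPP and 0.35 for CLP minus HSC. Over gene probes the same values were 0.30, 0.63 and 0.61. The sets were not matched for level: among probes detected on all 6 arrays the median was -0.75 for interval and 0.70 for gene probes. Probes of 1 interval and all probes of an array share their arrays and are not independent.

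No interval probe passed the limma test for genotype (lowest adjusted p = 0.556), beside 0.00906% of all probes; 638 (7.64%; all probes 5.72%) had an unadjusted p under 0.05, 165 higher and 473 lower on the null-labelled arrays. Within a population a genotype difference rests on 1 array against 1 and has no replicate check. The median error of such a difference from the scanner's own estimates was 0.22, which covers the measurement of the spot and not the biological spread. In HSC, 703 interval probes were past 2-fold higher and 1544 past 2-fold lower on the null-labelled array of 8835 compared (those detected on the brighter of both arrays), beside 7.88 and 10.7% of all probes (18.6% either way). That is 7.96 and 17.5% of the interval probes. In LMPP there were 757 higher and 735 lower of 7896 (9.59 and 9.31%) beside 7.12 and 5.92% of all probes (13.0% either way), and in CLP 1150 and 1146 of 7989 (14.4 and 14.3%) beside 12.5 and 10.8% (23.3% either way). Of these, 969 in HSC, 769 in LMPP and 1092 in CLP were bounds against an array without detection. Centring on the median moved the share of higher probes in HSC from 31.3 to 43.3%, and normexp background correction moved it in LMPP from 50.7 to 72.7% and in CLP from 50.1 to 39.0%. Near-even splits also crossed: LMPP had 916 higher and 1037 lower without the floor, and CLP 1088 and 1220 with median centring.

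The interval probes as a whole were lower on the null-labelled HSC array relative to the gene probes. Over interval probes the HSC median of null minus wild type was -0.24, against 0.13 over gene probes. The LMPP medians were -0.11 and -0.05, and those of CLP -0.11 and 0.05. Median centring shifted the median of all probes in HSC from -0.00 to 0.18, and the gap between interval and gene probes was -0.38 there and -0.37 without it. Quantile normalization and normexp each left a gap of -0.26. The medians differed along the range of levels. In HSC the interval median was -0.42 for probes with a mean level up to -3, -0.30 up to -1, -0.11 up to 2 and 0.06 above, and the gene medians in the same ranges were -0.13, -0.03, 0.16 and 0.18. Of the interval probes, 52.3% were detected on the wild type and 47.4% on the null-labelled HSC array. The medians cover probes detected on the brighter array of the pair, with low undetected values raised to the floor. Probes detected on the wild type array alone could enter only with a lower null-labelled value. The detection gap is thus part of these medians and not a second observation.

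All 19 autosomes had a median below 0 over interval probes in HSC, and 16 of 19 did with median centring. The interval median was below the gene median of the same chromosome on all 19 under the main scaling, median centring, the percentile over detected probes, quantile normalization and normexp, and chromosome 9 was the lowest under each. The lowest was chromosome 9 at -0.50, followed by chromosome 3 at -0.33, and the highest was chromosome 17 at -0.06. Gene probes of the same chromosomes lay between 0.09 and 0.20, with chromosome 9 at 0.11. On chromosome 9 the lower signal was spread along the chromosome: in 5 windows of 25 Mb the medians were -0.68, -0.44, -0.53, -0.43 and -0.41. Detection of its interval probes was 48.6% on the wild type and 37.6% on the null-labelled HSC array. Chromosomes were not matched for probe level, and the part of level and detection in their order was not tested. In LMPP the chromosome medians ran from -0.21 (chromosome 10) to 0.02 (chromosome 19) and in CLP from -0.28 (chromosome 19) to 0.02 (chromosome 8). Chromosome 9 was not the lowest in either, at -0.18 and -0.12.

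Few probes differed the same way in all 3 populations. Of 6611 interval probes compared in all 3, 30 were past 2-fold higher on the null-labelled arrays and 39 past 2-fold lower, that is 0.454 and 0.590% beside 0.293 and 0.321% of all probes. The most even of the higher ones was at chr9:43738583-43757007 (reverse). It read -5.95 and -0.94 in wild type and null-labelled HSC, -5.94 and -1.43 in LMPP, and -5.97 and -1.26 in CLP, and no wild type array detected it. The probe was chosen for being past 2-fold higher in all 3 populations, so the separation of the genotypes restates that choice. The differences were bounds of at least 3.09, 2.61 and 2.87. The other 4 reverse and the 5 forward probes of the interval did not share the pattern. This probe entered the fit only through the null-labelled arrays, and its wild type values were set by the floor. The fitted difference of 2.86 ± 0.22 did not pass (limma adjusted p = 0.556). Its SE and adjusted p do not measure the spread of the wild type arrays. At chr2:126501651-126510026 (forward) 2 of 3 probes were higher in the same way, the named probe by 2.19 in HSC, 4.39 in LMPP and at least 2.10 in CLP.

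Lower signal on all null-labelled arrays had the most even support at chr10:66574421-66575488 (forward). Its named probe read 1.54 and -0.99 in wild type and null-labelled HSC, 0.69 and -1.81 in LMPP, and -1.39 and -3.65 in CLP. The probe was chosen for being past 2-fold lower on the null-labelled array in each population, here by differences of -2.53, -2.50 and -2.25. All 3 probes of the interval were past 2-fold lower in all 3 populations. The fitted difference was -2.43 ± 0.20 and did not pass over all probes (limma adjusted p = 0.688). At chr4:88542373-88589148 (forward) the named probe was lower by -2.43 in HSC and by at least -3.58 and -3.20 in LMPP and CLP, where the null-labelled arrays did not detect it, but it was alone among 10 probes. The other named lower probes, at chr2:174428737-174439062, chr5:31862823-31871445 and chr5:77188300-77205150 (all forward), were each the only such probe of their interval. Of the other named higher probes, the one at chr7:99879368-99889978 was alone among the probes of its interval, and chr17:56691095-56693810 and chr19:29143750-29172450 (all reverse) hold 1 probe each. Under other settings the split of all 69 moved: 7 higher and 18 lower were counted with detection on both arrays of each population required, and 1 lower with normexp. The Xist signal and the slide row moved with every one of these genotype differences, and which of them each follows cannot be told apart.

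The 1042 intervals with probes for both strands were sorted by whether at least 50% of a strand's probes were detected on all 6 arrays. Both strands were detected in 245, the forward strand alone in 132, the reverse strand alone in 98, and neither in 567. Whether the amplification and labelling kept the strand of the RNA is not stated by the labels. In the 245 intervals the median differences of the strands went together. CLP minus LMPP had the same sign on both strands in 192 (78.4%) with a correlation of 0.70, and null minus wild type in HSC in 175 (71.4%) with a correlation of 0.53; the strands share the same arrays. Both strands were past 2-fold for CLP minus LMPP in 15 intervals, 14 of them the same way. The 5 intervals named by the level of their dimmer strand were chr17:39960567-39992817, chr12:119825125-119850750, chr11:19778600-19815950, chr5:96591892-96606467 and chr6:4841700-4847400, all detected with every probe on every array.

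The spread among probes of the same interval and strand was set beside the spread over all such probes. Over the 674 interval strands with at least 3 probes on all 6 arrays, the median SD of CLP minus LMPP within a strand was 0.32, where the SD over all such probes was 0.80. For null minus wild type in HSC these were 0.34 and 0.73. A median of SDs and a pooled SD are unlike measures, so the gap does not by itself show that probes of a strand varied together. Separate loci that neighbour each other were described by correlation, which is not on the scale of these SDs. Among 1290 loci with a probe on all 6 arrays, the correlation of CLP minus LMPP between neighbours was 0.28 over 59 pairs less than 10 kb apart, 0.08 over 102 pairs at 10 to 50 kb, 0.06 over 354 pairs at 50 to 500 kb and -0.00 over 756 pairs beyond. For null minus wild type in HSC the values were 0.06, 0.25, 0.02 and -0.01. These are descriptions across loci measured on the same arrays.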

How the data were processed

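The authors' scanner files hold, per the file headers, the output of Feature Extraction 10.10.1.1 (Agilent), with a green processed signal per spot as a linear intensity; the submitters' processing notes name version 10.10. Per the labels' protocols, 6.1 ng of total RNA was amplified and labelled with Cy3 for each array. The authors' deposited matrix holds the same intensity times a constant per array (5.71 to 8.77), whose basis is unknown; the median of a column was 200.1 and 165.3 in wild type and null-labelled HSC, 140.2 and 145.6 in LMPP, and 120.7 and 124.9 in CLP.

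Controls were left out, as were spots the software called outliers (154 to 181 an array; 7 interval probes lost a value), and log2 values were centred on the array's 75th percentile. For fits and bounds, a probe without the detection mark was set to at least the lowest marked value of its array. Tests used limma 3.58.1 in R 4.3.3, other steps Python 3.11.15 with pandas 2.3.3 and scipy 1.17.1, and the fit was tested on simulated data. Gene probes were named by accession through the RefSeq table of assembly GRCm38.p6 (27229 matched), whose positions were not used with the mm9 intervals. Alternatives were other centring, quantile normalization, normexp (offset 50, on the median signal, since no mean signal is given), no floor, other detection flags and filters, an intensity trend, 1 probe per interval and strand, and leaving out each array.

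Named intervals were the 10 brightest, the 5 brightest restricted per population, up to 5 each way per population comparison, up to 5 each way past 2-fold in all 3 populations, and the 5 with the highest dimmer strand. Members, lists and rules were chosen with earlier results of these data known. With 1 array per group the number of arrays limits precision, and p-values reflect the spread between these arrays only.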

Additional observations from a re-analysis of the deposited data

How the results depend on the processing

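No paired analysis was possible because each group has 1 array and the labels give no replicate numbers to block on, although the fit does compare populations within each genotype. Calls for CLP against LMPP were 94; they became 153 with median centring, 62 with the 75th percentile over probes detected everywhere, 30 with quantile normalization, 345 with normexp, 147 with detection on all 6 arrays required, 378 with an intensity trend, 28 with 1 probe per interval and strand, and 0 without the floor or without the filter. CLP against HSC went from 104 to 175, 69, 16, 373, 296 and 33 under median centring, the other percentile, quantile normalization, normexp, trend and 1 probe, and to 0 without the floor or the filter. Leaving out each array gave 0 to 0 calls in both, with 1 residual degree of freedom. LMPP against HSC and genotype had 0 calls in limma under every alternative run. Probes past 2-fold between genotypes were 2247 in HSC, 1492 in LMPP and 2296 in CLP. They became 493, 231 and 674 with normexp, 4074, 2969 and 3880 at 1.5-fold, 992, 605 and 1227 at 3-fold, 1278, 723 and 1204 with detection on both arrays, 4280, 3199 and 4228 without a filter, and 749, 430 and 694 with 1 probe per interval and strand. The 69 in all 3 populations became 1, 265, 10, 25 and 199 under the first 5 of these. With the software's weaker flag (positive and significant) detection in wild type and null-labelled cells rose to 77.8 and 71.2% in HSC, 72.4 and 68.2% in LMPP and 71.4 and 70.5% in CLP, and with 1 probe per interval and strand to 71.4 and 66.7%, 66.1 and 62.5%, and 65.2 and 65.4%; both-strand intervals rose from 245 to 460 with the weaker flag. Under a 2-fold rule the restricted probes went from 162 to 88 in HSC, 29 to 33 in LMPP and 87 to 113 in CLP, which puts CLP above HSC. With 1 probe the restricted counts were 39, 5 and 24 for HSC, LMPP and CLP, and without the wild type HSC array, an alternative chosen after seeing the data, 470, 86 and 165. The order of wild type and null-labelled CLP detection also turned with the weaker flag, as did the near-even genotype splits of LMPP and CLP under several settings. For the 20 named differences that passed, all 120 fits without 1 array lost the threshold, and of the other alternatives 50 lost it and 136 kept it. Normexp on the median signal was also chosen after seeing the data. The cause of these shifts was not tested. Signal over background limits what can be said of dim intervals, since restricted probes sat close to the detection limit.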
